A study of Mus musculus with 4 samples.

Results

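A20, its adaptor proteins and a pair of further deubiquitinases restrain the signal that runs from the TNF receptor to the transcription factor NF-kB. The genes described here are Tnfaip3 (encoding A20), Tnip1 and Tnip2 (encoding the A20-binding adaptors ABIN-1 and ABIN-2), Cyld and Otud7b (encoding Cezanne). All probe sets that the array annotation gives to any of the 5 genes were taken, and these were 12 of the 45101 probe sets on the array: 2 for Tnfaip3, 1 each for Tnip1 and Tnip2, and 4 each for Cyld and Otud7b. Signals came from mouse embryonic 3T3 fibroblasts, an immortal cell line, on 4 Affymetrix oligonucleotide arrays with 1 array in each group. All cells had been held overnight in 0.5% serum. The basal group was then harvested without TNF, and the other groups received TNF, an inflammatory cytokine, at 10 ng/ml for 0.5 h, for 2 h at a concentration that the labels do not give, and at 10 ng/ml for 12 h. The 2 h sample was placed by its title and source name, because its protocol text is the one given for basal cells. The labels do not say how many cultures went into a sample. No untreated array was matched in time to the TNF arrays, so the effect of TNF and that of added time cannot be told apart.

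After TNF binds its receptor, ligases build ubiquitin chains on the receptor complex, and kinases that activate NF-kB gather on these chains. A20 joins an ovarian tumour (OTU) type deubiquitinase domain to zinc fingers that bind and edit ubiquitin, and the ABIN proteins bind both ubiquitin chains and A20. Cyld and Otud7b cut ubiquitin chains. Tnfaip3 is a classical target gene of NF-kB, so its product acts as negative feedback on the pathway that induces it.

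With 1 array per group there was no replicate error, no test was run, and the number of arrays limits the precision. In what follows a gene "rose" or "fell" when its ratio to the other array was at least 2-fold, after signals below 9.08, the 30th percentile of all values, had been raised to that floor. A gene was counted by its probe set of highest mean log2 signal. A second, higher floor at the 75th percentile (a signal of 102) set aside dim probe sets. Ratios were read against the scatter of probe sets of like mean signal, given as the scaled median absolute deviation (MAD) of their log2 ratios. The median log2 ratio of the 16269 genes analysed against basal was -0.03 after 0.5 h, -0.09 after 2 h and -0.14 after 12 h, and rescaling each array moved these medians to 0. Pearson's r of log2 signals between arrays ran from 0.956 to 0.984 over 12338 probe sets, which are not replicates. Of 11 fibroblast markers 8 lay above the higher floor on all 4 arrays, led by Vim and S100a4, while Thy1 (at most 14.6), Dcn and Lum stayed low. Of the other cell types' markers, 0 of 8 for macrophages and leukocytes, 0 of 5 for endothelium and 0 of 5 for epithelium did so. Among the 8, Ptprc, Itgam and Cd3e were under the floor on every array. The brightest were Cd14, at 93.5 to 111 and so above the higher floor at 0.5 h, and Csf1r, at 54.6 to 69.3. The summed signal of the macrophage and leukocyte markers ran from 238 to 263 over the 4 arrays, against 35018 to 36225 for the fibroblast markers.

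Tnfaip3 rose early and steeply, then declined while staying above basal. Its probe set 1433699_at gave a signal of 268 on the basal array, 2521 after 0.5 h, 1463 after 2 h and 568 after 12 h. The second probe set, 1450829_at, gave 60.7, 1016, 497 and 154 on the same arrays. On both probe sets the order of the arrays was the same, highest at 0.5 h, then 2 h, 12 h and basal.

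The rise at 0.5 h was 9.42-fold on 1433699_at and 16.7-fold on 1450829_at. These log2 ratios, 3.24 and 4.06, compare with scaled MADs of 0.12 and 0.14 among probe sets of like signal, and the 99th percentiles of those probe sets were 0.44 and 0.50. The mean signal that set this level included the arrays on which Tnfaip3 was high. In basal cells 1450829_at gave 60.7. Probe sets of mean signal 32 to 64 had a wider scaled MAD, 0.38, and a 99th percentile of 1.06. Tnfaip3 had the 5th highest ratio of the 16269 genes at 0.5 h. It was the only 1 of the 5 genes to rise, where 2.55% of all genes did, and 0 of the 5 fell, where 2.96% of all genes did. With the higher floor Tnfaip3 was again the 1 gene of the group to rise, of 4 that could be analysed, where 0.328% of all genes rose, and 0 of the 4 fell, where 0.0137% did.

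At 2 h Tnfaip3 stood 5.46-fold above basal on 1433699_at and 8.19-fold on 1450829_at, and ranked 18th of all genes. At 12 h it stood 2.12-fold and 2.53-fold above basal, with the 376th highest ratio. Of the signal gained by 0.5 h, 53.0% and 45.7% was present at 2 h on the probe sets in the same order, and 13.3% and 9.75% at 12 h. As interval averages, the log2 signal fell by 0.52 per h on 1433699_at and 0.69 per h on 1450829_at between 0.5 h and 2 h. Between 2 h and 12 h the averages were 0.14 and 0.17 per h. No array lay between 2 h and 12 h, so when within those hours the signal fell is not known. Between 2 h and 0.5 h the signal on 1433699_at was 1.72-fold lower at 2 h, short of the rule, and that on 1450829_at 2.04-fold lower. From 2 h to 12 h both probe sets passed it, 2.58-fold and 3.23-fold lower at 12 h.

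**Figure D1:**
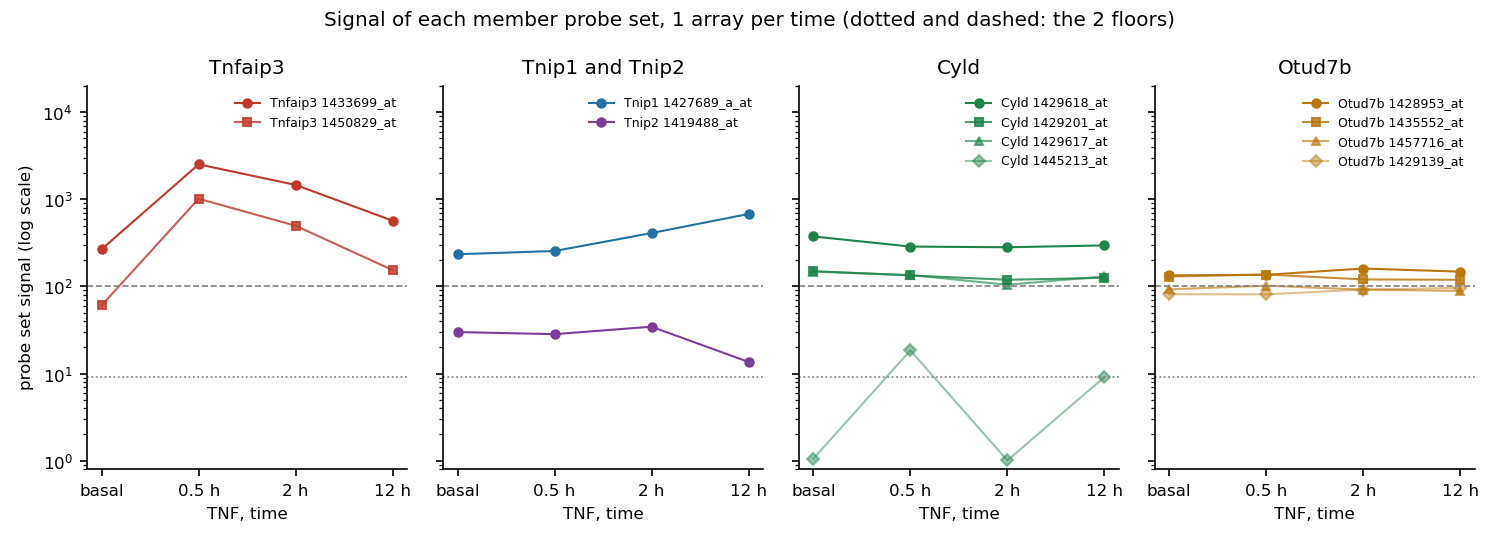
Signal of each of the 12 probe sets (log scale) on the basal, 0.5 h, 2 h and 12 h arrays, 1 array per time; the dotted line is the floor at 9.08 and the dashed line the higher floor at 102. Both Tnfaip3 probe sets peak at 0.5 h, the Tnip1 probe set is highest at 12 h, 3 Cyld probe sets are lowest at 2 h and the Otud7b probe sets stay between 81.1 and 161.

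Tnip1, whose product ABIN-1 binds A20 and ubiquitin chains, took a late course. Its single probe set, 1427689_a_at, gave 234 on the basal array, 255 after 0.5 h, 410 after 2 h and 679 after 12 h, each array higher than the one before. The ratio to basal was 1.09-fold after 0.5 h, 1.75-fold after 2 h and 2.90-fold after 12 h, so only the last passed 2-fold. On the log2 scale the values 0.12, 0.81 and 1.53 compare with scaled MADs of 0.14, 0.18 and 0.29 for probe sets of like signal. At 2 h the ratio lay above the 99th percentile of those probe sets (0.61), and at 12 h as well (0.83). Tnip1 ranked 4048th of 16269 genes after 0.5 h, 666th after 2 h and 111th after 12 h, while Tnfaip3 moved the opposite way through the ranks.

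At 12 h the 2 genes that rose, of the 5, were therefore Tnfaip3 and Tnip1, where 2.79% of all genes rose, and with the higher floor both rose where 0.616% of all genes did. At 12 h the ratio of Tnip1 (1.53) was larger than that of either Tnfaip3 probe set (1.09 and 1.34). At 2 h, Tnfaip3 was the 1 of the 5 that rose, against 2.58% of all genes (0.479% with the higher floor), and 0 fell, against 3.6% (0.164% with the higher floor). Neither step between TNF arrays took Tnip1 past 2-fold: it was 1.61-fold higher at 2 h than at 0.5 h and 1.65-fold higher at 12 h than at 2 h. Of the 5 genes 0 rose from 0.5 h to 2 h and 0 from 2 h to 12 h, where 2.6% and 2.81% of all genes did. From 0.5 h to 2 h 0 of them fell (2.96% of all genes), and from 2 h to 12 h Tnfaip3 and Tnip2 fell (3.12%).

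The promoters of the 2 genes that rose are shown because each holds matches to the NF-kB motif close to the transcript start. They are RefSeq sequences of the GRCm38.p6 build, on the strand of the gene, 5′ to 3′, and only bases outside the annotated gene span are printed. Capitals mark matches, on either strand, to a looser NF-kB motif. Tnfaip3 lies on the minus strand of chromosome 10 and Tnip1 on the minus strand of chromosome 11, and the stretches are chr10:19015411-19015660 and chr11:54962957-54963190. In the RefSeq annotation of this build the gene Tnfaip3 spans chr10:19000910-19015410 and Tnip1 chr11:54910787-54962956, while Tnip2 spans chr5:34496096-34513979, Cyld chr8:88696878-88751946 and Otud7b chr3:96104504-96161129. For Cyld, which did not rise, 30 bases around its match are given on the plus strand, chr8:88696863-88696892. Unlike the promoters of the 2 genes that rose, this stretch runs into the annotated gene span.
Tnfaip3: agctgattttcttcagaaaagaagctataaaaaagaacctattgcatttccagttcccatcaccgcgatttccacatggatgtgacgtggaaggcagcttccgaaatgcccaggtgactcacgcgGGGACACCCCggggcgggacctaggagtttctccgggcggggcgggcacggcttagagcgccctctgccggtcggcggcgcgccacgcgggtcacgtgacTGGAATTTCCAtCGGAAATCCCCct
Tnip1: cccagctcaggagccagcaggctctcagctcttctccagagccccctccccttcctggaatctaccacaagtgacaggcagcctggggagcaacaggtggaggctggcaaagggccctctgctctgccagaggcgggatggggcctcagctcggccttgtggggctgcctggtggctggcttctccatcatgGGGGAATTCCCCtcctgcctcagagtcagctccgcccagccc
Cyld: ttgaccgagcGGAAAGTCCCttcagccagc

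In windows of 250 bases before to 50 bases after each annotated start, the strict NF-kB consensus had a match on either strand in 4.51% of 32851 RefSeq windows, and the looser motif in 26.6%. Windows were held for 4 of the 5 genes, Otud7b being the other. Tnfaip3 had 3 separate stretches with a looser match in the window of its first start, GGGACACCCC, TGGAATTTCCA and CGGAAATCCCC. The strict consensus matched GGGACACCCC and, on the other strand, GGGGATTTCC, which overlaps a looser match there. The window of its other annotated start had 0. In Tnip1 the matches overlap in 1 palindromic stretch, GGGGAATTCCCC. Cyld had 1 stretch, which matched the strict consensus as GGGACTTTCC on the opposite strand and runs over the annotated 5′ end of the gene, and Tnip2 had 0. A match is a description of sequence, and Cyld, which did not rise, held one as Tnfaip3 and Tnip1 did.

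Tnip2 encodes ABIN-2, an adaptor that binds A20 and also the kinase TPL-2, the product of Map3k8. Its probe set, 1419488_at, was dim, with signals of 29.9 (basal), 28.3 (0.5 h), 34.5 (2 h) and 13.6 (12 h). Only the 12 h array stood apart, 2.20-fold below basal, and Tnip2 was thus the 1 of the 5 genes that fell at 12 h, where 5.18% of all genes fell. At this signal the scaled MAD was 0.64 at 12 h, so the log2 ratio of -1.14 lay 1.55 MADs from the median of like probe sets. With median centring, quantile normalization or loess the log2 ratio was between -0.99 and -0.98, short of 2-fold, and with the higher floor Tnip2 could not be analysed and 0 of the other 4 genes fell, where 1.72% of all genes did. In a bulk extract fewer cells with a transcript and less of it per cell cannot be told apart.

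Cyld, whose product removes ubiquitin chains from proteins of the receptor complex, showed no rise on its bright probe sets. Probe set 1429618_at gave 375 on the basal array, then 287, 282 and 296 after 0.5, 2 and 12 h. Probe set 1429201_at gave 150, 134, 119 and 126, and 1429617_at gave 148, 135, 104 and 131. On all 3 the basal array was highest and the 2 h array lowest, although after median centring, quantile normalization or loess 1429618_at was lowest at 0.5 h.

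The log2 ratios of these 3 Cyld probe sets to basal ran from -0.39 to -0.13 at 0.5 h, from -0.50 to -0.33 at 2 h and from -0.34 to -0.18 at 12 h, and none reached 2-fold. The greatest distance from like probe sets was that of 1429618_at at 0.5 h, 2.35 scaled MADs below their median, and the distances at 12 h were at most 0.35 MADs in size. At 0.5 h and 2 h all 3 stayed below basal after median centring, quantile normalization and loess, from -0.40 to -0.07 over the 3 scalings. At 12 h the ratio of 1429617_at was -0.02 after centring but 0.04 and 0.05 after quantile normalization and loess, so its direction depended on the scaling. The probe sets 1429617_at and 1429618_at are annotated to the same sequence record and are not independent. The fourth, 1445213_at, gave 1.05, 18.5, 1.01 and 9.12, below or near the floor on 3 of the arrays. Its apparent 2.03-fold rise at 0.5 h, with the basal signal raised to the floor, was found on none of the brighter Cyld probe sets.

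Otud7b, encoding a deubiquitinase of the same OTU family as A20, varied least of the 5 genes in the deposited signals. Its probe sets gave 134, 136, 161 and 148 (1428953_at), 130, 137, 120 and 119 (1435552_at), 92.6, 102, 91.9 and 88.8 (1457716_at) and 81.4, 81.1, 92.2 and 96.4 (1429139_at) in basal cells and at 0.5, 2 and 12 h. The highest array was the 0.5 h one for 2 probe sets, the 2 h one for 1 and the 12 h one for 1, so the probe sets shared no order. Highest over lowest signal was between 1.15-fold and 1.20-fold for each. Their log2 ratios to basal lay between -0.01 and 0.14 at 0.5 h, -0.11 and 0.26 at 2 h and -0.12 and 0.25 at 12 h. The largest distance from like probe sets was 1.76 scaled MADs, for 1428953_at at 2 h. The ratios of 1435552_at and 1457716_at at 12 h, negative as deposited, were positive under each of the 3 scalings. So was that of 1457716_at at 2 h, and that of 1435552_at at 2 h under quantile normalization and loess (0.02 with either). The highest ratio after rescaling was 0.45, for 1429139_at at 12 h.

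**Figure D2:**
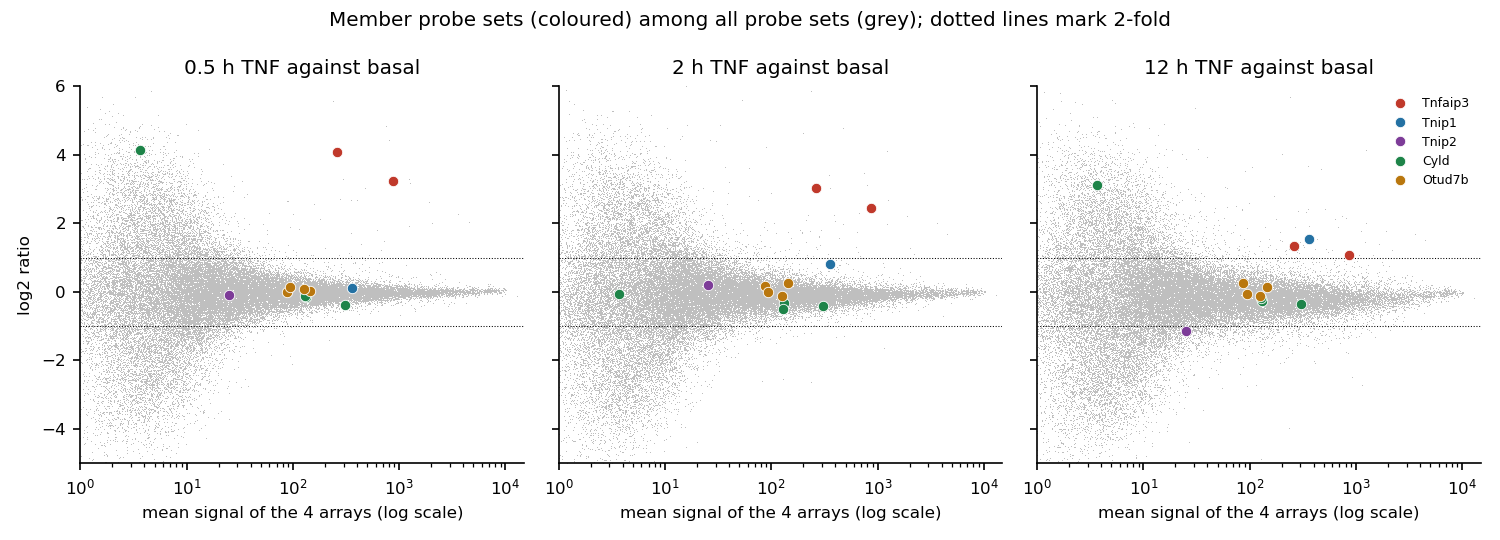
Log2 ratio to basal (vertical) against mean signal of the 4 arrays (horizontal, log scale) for all 45101 probe sets (grey) and the 12 probe sets of the 5 genes (coloured), at 0.5, 2 and 12 h; dotted lines mark 2-fold, and points outside the axes are not drawn. Both Tnfaip3 probe sets stand above the grey cloud at 0.5 h (3.24 and 4.06), Tnip1 reaches 1.53 at 12 h, and the Cyld probe set at the left edge lies among dim probe sets that scatter past 2-fold either way.

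The genes whose course came nearest to each of the 2 that rose were sought by the Euclidean distance between the 3 log2 ratios to basal, over 7310 other genes with a signal above 102 on at least 1 array. For Tnfaip3 the nearest was Irf1, an interferon-response transcription factor, at a distance of 0.73. Its signals were 151 on the basal array, then 950, 621 and 284 after 0.5, 2 and 12 h. The cytokine gene Lif followed at 0.93, then Nfkbiz (1.44), the chemokine gene Cxcl5 (1.47) and Nfkbia (1.5). Of these 5 genes, all but Cxcl5 were highest at 0.5 h. On the probe sets that stood for the genes, the ratio of Tnfaip3 exceeded each of theirs at 0.5 h and at 2 h. At 2 h the highest log2 ratio of an Nfkbia probe set was 2.65, against 2.45 and 3.03 for the Tnfaip3 probe sets, so that order depended on the probe set.

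For Tnip1 the nearest genes were H2-D1 (0.18), Ifitm3 (0.20), Tapbp (0.21), Il13ra1 (0.24) and Irak1 (0.37). H2-D1 and Tapbp act in antigen presentation by MHC class I, and Ifitm3 is an antiviral membrane protein gene. Tapbp gave 1135 on the basal array, then 1192, 1815 and 2946 after 0.5, 2 and 12 h. Ifitm3 gave 698, 784, 1213 and 2319. Both were highest at 12 h, as was Tnip1, which follows largely from their being picked by likeness to its course. Il13ra1, at 43.0, 41.9, 81.7 and 137 on the 4 arrays, was above 102 only at 12 h. The 5 genes nearest to Tnip1 all lay closer to it than Irf1 lay to Tnfaip3. The distance was not scaled to the size of the ratios, which were larger for Tnfaip3, so the distances of the 2 genes are not on a like footing. H2-D1 belongs to a family of closely similar class I genes, so its probe sets may read other members. When each gene was taken as the mean of its probe sets, 3 of the 5 genes stayed nearest to Tnfaip3 and 1 of the 5 to Tnip1.

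**Figure D3:**
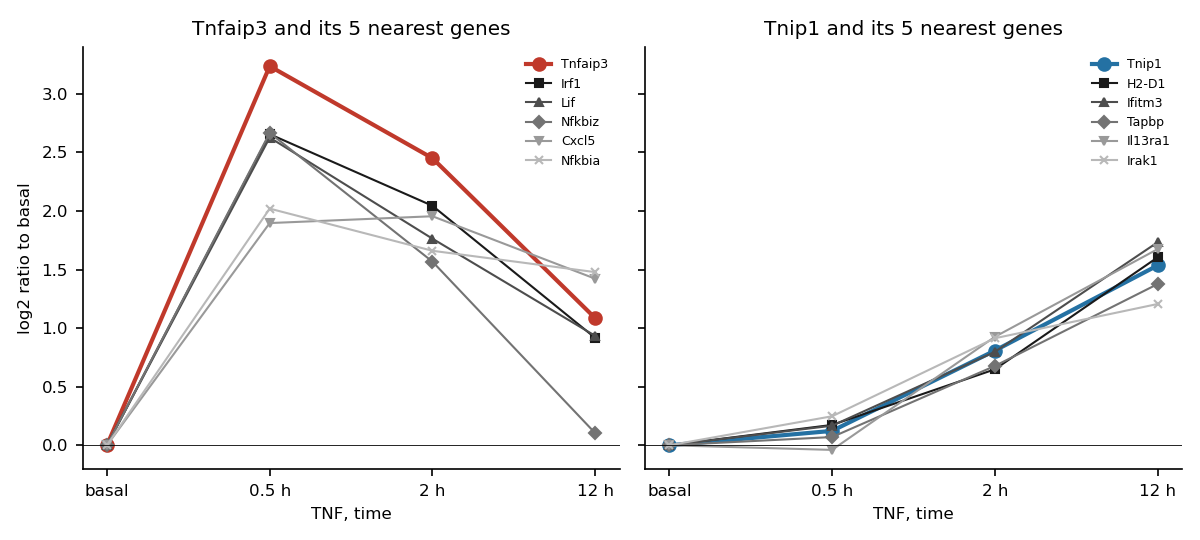
Log2 ratio to basal on the 4 arrays for Tnfaip3 (left) and Tnip1 (right), each with its 5 nearest genes in grey. The Tnfaip3 curve reaches 3.24 at 0.5 h and is at 1.09 at 12 h, and the Tnip1 curve is at 0.12 at 0.5 h and highest, 1.53, at 12 h.

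Among the listed partners and adaptors of A20 that had values, only the genes of A20 and ABIN-1 rose. A list of 7 A20 partners and adaptors had 6 members with values, and Tnip3 was not analysed here. Itch, a ubiquitin ligase of the A20 complex, gave 211, 213, 195 and 173 in basal cells and at 0.5, 2 and 12 h. Rnf11, a further ligase of that complex, gave 1074, 1040, 974 and 953. Tax1bp1, a ubiquitin-binding adaptor, gave 776, 685, 653 and 475, and its log2 ratio of -0.71 at 12 h was short of 2-fold. The list thus held 1 gene that rose at 0.5 h, 1 at 2 h and 2 at 12 h, and the 1 that fell at 12 h was Tnip2. Among all genes 2.55% rose at 0.5 h, 2.58% at 2 h and 2.79% at 12 h, and 5.18% fell at 12 h. The list's median log2 ratio was -0.02, 0.05 and -0.23 at the 3 times, beside -0.03, -0.09 and -0.14 for all genes.

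In the OTU family, 14 of 15 listed genes were analysed. In the deposited signals Tnfaip3 was the 1 member that rose at each time, beside 2.55%, 2.58% and 2.79% of all genes at 0.5, 2 and 12 h. In this family 0 fell, where 2.96%, 3.6% and 5.18% of all genes did, and with so few genes a count of 0 lies near those shares. The list's medians were -0.03, -0.04 and -0.08. Otub2, picked after its values were seen, came closest among the others at 12 h, at 159 against 83.5 in basal cells (1.90-fold), with its other probe set at a log2 ratio of 0.19. Of 16 genes with Cyld and other deubiquitinases linked to NF-kB or TNF signalling, 0 rose at 0.5 h and 1, Usp18, rose at 2 h and at 12 h, while 0 fell at any time. Such counts lie near the shares of all genes, of which 2.55%, 2.58% and 2.79% rose and 2.96%, 3.6% and 5.18% fell at the 3 times. With the higher floor 0 of 12 genes rose, where 0.328%, 0.479% and 0.616% of all genes did, and a count of 0 lies near those shares too. Usp18, which removes the ubiquitin-like protein ISG15, stayed dim, at 9.24, 3.93, 19.7 and 41.8 on the 4 arrays, and did not reach the higher floor. The other largest ratios in this list were those of Usp2 (0.64) and Otulin (-0.39) at 0.5 h, of Usp31 at 2 h (-0.42) and 12 h (-0.65), and of Spata2 at 12 h (0.52). Spata2 bridges Cyld to the receptor complex. The medians were -0.06, -0.16 and -0.17.

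Of 13 ubiquitin ligases and conjugating enzymes of the TNF receptor complex, 0 rose at 0.5 h (2.55% of all genes), 2 at 2 h (2.58%) and 1 at 12 h (2.79%). In this list 0 fell, where 2.96%, 3.6% and 5.18% of all genes did. Birc3, encoding the ligase cIAP2, gave 115 on the basal array, then 87.2, 370 and 379 after 0.5, 2 and 12 h. It stood 3.21-fold above basal at 2 h and 3.29-fold at 12 h. Birc2, encoding cIAP1, gave 177, 218, 359 and 278 and passed 2-fold at 2 h alone (2.03-fold). The list's medians were -0.16, -0.05 and -0.21. The largest ratios at 0.5 h were those of Rnf31 (-0.76), which encodes the catalytic subunit of the linear ubiquitin ligase, Birc3 (-0.40) and Ube2d2a (-0.35), all short of 2-fold. A second, dim probe set of Birc3 gave 2.15 on the basal array, below the floor, then 28.3, 15.3 and 18.9. It was more than 2-fold above the floor at 0.5 h and 12 h but not at 2 h. The times at which Birc3 passed the rule thus depended on the probe set. Traf3 and Ube2l3 were not analysed here.

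Among 13 receptor, adaptor and kinase genes whose products carry or bind such chains, 2 rose at 0.5 h (2.55% of all genes), 0 at 2 h (2.58%) and 0 at 12 h (2.79%), and 0 fell (2.96%, 3.6% and 5.18% of all genes at the 3 times). Both that rose were dim, and with the higher floor 0 of 8 genes rose at 0.5 h, where 0.328% of all genes did. Map3k8, the kinase gene whose product ABIN-2 binds, gave 16.2 on the basal array, then 43.6, 15.2 and 15.5 after 0.5, 2 and 12 h. The probe set that stood for Traf1 gave 1.34 on the basal array, then 19.3, 7.48 and 12.6, and passed the rule at 0.5 h from below the floor. The other Traf1 probe set gave 1.92, 1.67, 14.7 and 21.3, below the floor in basal cells and at 0.5 h but more than 2-fold above the floor at 12 h, so the time at which Traf1 passed the rule depended on the probe set. Neither gene reached the higher floor. The largest ratios at later times were those of Fadd (0.44), Map3k14 (0.42) and Tab1 (-0.40) at 2 h and of Tab3 (-0.84), Map3k7 (-0.60) and Map3k14 (-0.48) at 12 h. The list's medians were -0.07, -0.09 and -0.27, and Ripk1, Ripk2 and Chuk were not analysed here. Of 6 ubiquitin and E1 enzyme genes only Uba6 was analysed here, with log2 ratios of -0.02, -0.03 and -0.39.

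The IkB family, which includes feedback inhibitors of NF-kB, had 3 of 6 listed members that rose at 0.5 h (2.55% of all genes), 4 at 2 h (2.58%) and 2 at 12 h (2.79%). In this list 0 fell, where 2.96%, 3.6% and 5.18% of all genes did. Medians were 0.50, 1.59 and 0.73. Nfkbia, encoding IkB-alpha, gave 1843 on the basal array, then 7476, 5826 and 5134 after 0.5, 2 and 12 h. It was highest at 0.5 h, as Tnfaip3 was, and stood 2.79-fold above basal at 12 h on this probe set. At 12 h the log2 ratios of the Nfkbia probe sets ran from 0.86 to 1.99 and those of Tnfaip3 were 1.09 and 1.34, so the order of these genes depended on the probe set. Nfkbiz gave 132, 836, 390 and 141, back near basal at 12 h. Nfkbie, encoding IkB-epsilon, was highest at 2 h, at 885 against 36.5 in basal cells (24.3-fold), and at 12 h stood 15.8-fold above basal. Bcl3 was dim and in the deposited signals rose at 2 h alone, at 57.4 against 18.9 in basal cells. Its ratio at 12 h was 1.88-fold, near enough to the rule to depend on the scaling. Over the 67 different genes of all 7 lists that were analysed, 6 rose and 0 fell at 0.5 h, 8 and 0 at 2 h, and 6 and 1 at 12 h. Among all genes 2.55% rose and 2.96% fell at 0.5 h, 2.58% and 3.6% at 2 h, and 2.79% and 5.18% at 12 h. The counts over the lists include Tnfaip3 and the other genes of the group.

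**Figure D4:**
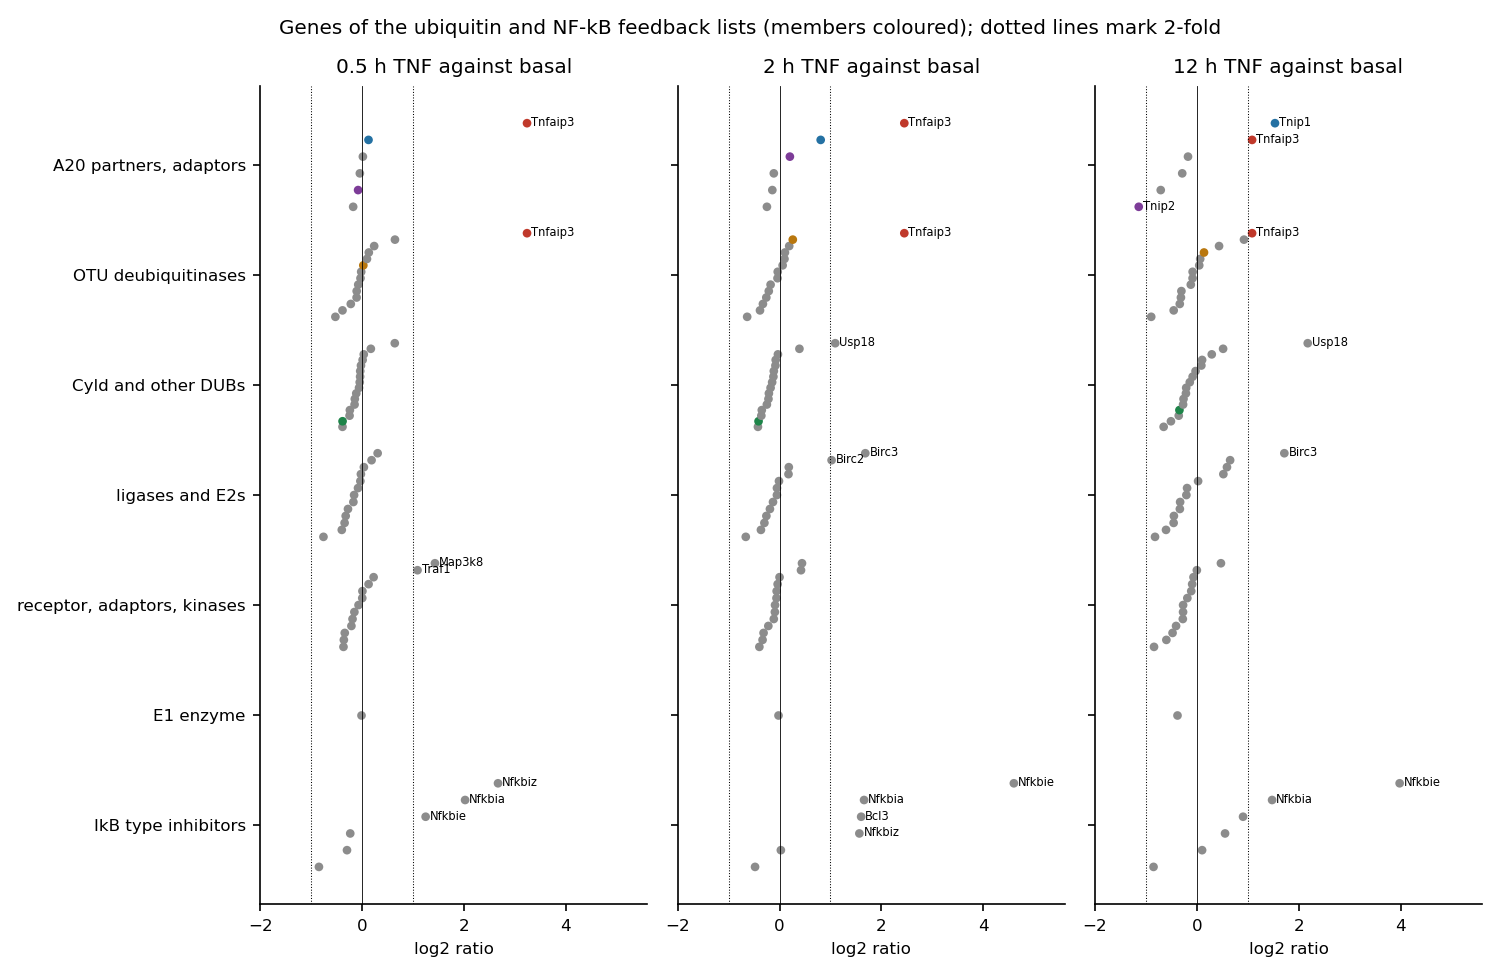
Log2 ratio to basal of each analysed gene in the 7 lists at 0.5, 2 and 12 h, 1 row of points per list; genes past 2-fold (dotted lines) are named and the 5 genes described here are coloured. Tnfaip3 stands apart in both lists that hold it at 0.5 h (3.24), and the other deubiquitinases lie within 2-fold of basal except Usp18 at 2 h and 12 h.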

How the data were processed

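RNA of 4 samples was measured on 1 array each. The arrays were Affymetrix mouse genome arrays hybridised with biotin-labelled RNA, per the labels' protocols. The deposited values are linear signal intensities, 1 per probe set and array; the authors' signal algorithm and scaling were not given in the sources used here. Groups came from the sample titles. The annotation named 1 gene for 34958 of 45101 probe sets and several for 932, and these named none. Named genes numbered 18193; leaving out the 1924 that no array placed above the floor left 16269. Log2 ratios were taken from the deposited values without rescaling, and 0 tests were run. The members, the 7 gene lists and the rules were chosen with earlier results of these data known. Named genes were all probe sets of the 5 genes, the A20 partner list in full, list genes past 2-fold with a signal above 102 or otherwise the 3 largest ratios at each time, dim genes past 2-fold behind a count, and the 5 nearest genes. Of 79 listed genes 67 were analysed. Alternatives were no floor or one at the 20th, 50th or 75th percentile, median centring, quantile normalization, loess (span 0.3), averaging over each gene's probe sets, 1.5-fold and 3-fold rules, and a looser motif. Names and coordinates came from RefSeq for GRCm38.p6, with all 5 genes matched; no build is named for the array values. The steps were tested on simulated data. Python 3.11.15, numpy 2.4.6, pandas 2.3.3 and statsmodels 0.14.6 were used.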

Additional observations from a re-analysis of the deposited data

How the results depend on the processing

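No paired analysis was possible because each group held 1 array, and no replicate could be left out. The rise of Tnfaip3 at 0.5 h and 2 h passed the rule under all 10 alternatives (log2 ratio 3.24 to 3.65 and 2.45 to 2.74), and its rise at 12 h (1.09 to 1.34) and that of Tnip1 at 12 h (1.53 to 1.77) under all but the 3-fold rule, with which 0 of the 5 genes rose at 12 h. The floors could not change these ratios, since the probe sets used lay above 102 on every array. The fold rules moved only the threshold. With the 1.5-fold rule 2 rose at 2 h, 1 rose and 1 fell from 0.5 h to 2 h, and 1 rose from 2 h to 12 h. The fall of Tnip2 at 12 h was lost (0 genes fell) with floors at the 50th and 75th percentile, with median centring, quantile normalization and loess, and with the 3-fold rule. From 2 h to 12 h, 1 gene fell with either of those floors and 0 with the 3-fold rule. Shares of all genes were taken only for the 2-fold rule, with the floor at 9.08 or, against basal, the higher floor. Counts under the other alternatives have no such share beside them, so they cannot be read against all genes.

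Over the 7 lists, the count that rose at 0.5 h was 3 with the floor at the 75th percentile or the 3-fold rule, and the count that fell was 1 with the floor at the 20th percentile and 2 with no floor or the 1.5-fold rule. At 2 h 5 rose with the 3-fold rule and 2 fell with the 1.5-fold rule. At 12 h 10 rose and 9 fell with the 1.5-fold rule, 3 rose and 0 fell with the 3-fold rule, 2 fell with the floor at the 20th percentile or no floor, and 0 fell with the other floors or any scaling. With median centring, quantile normalization or loess 8 rose at 12 h. Whether the counts with the 1.5-fold and 3-fold rules differ from the shares of all genes was not tested. With each gene's probe sets averaged, 3 of 5 nearest genes were shared for Tnfaip3 and 1 of 5 for Tnip1. Averaging also put Cyld's peak at 0.5 h, through its dim probe set. Signals near the floor limit what can be said of Tnip2.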
